A study of Mus musculus with 1536 samples.

Results

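The genes described here are those that encode the subunits of heterotrimeric G proteins (alpha, beta and gamma) and the regulators of G protein signalling (RGS proteins), measured in single serotonin neurons of the mouse raphe. They were chosen by symbol alone, as every Gna, Gnb1 to Gnb5, Gng, Gngt and numbered Rgs gene in the table, which gave 53 of 53263 gene symbols: 15 alpha, 5 beta, 12 gamma and 21 RGS genes. The neurons came from C57BL/6J mice 40 to 45 days old whose genotype label is Sert-tdTomato-Cre crossed with Ai14. Ai14 is a reporter that turns on the red protein tdTomato in cells that have made Cre, here under control of the serotonin transporter gene (Sert), and it marks past as well as present Cre. Red cells were sorted singly into wells. One dissection held the principal dorsal raphe alone (principal_DR) and the other is labelled as all of the dorsal raphe (all_DR), which by the study's methods also held the median raphe. Both dissections share the genotype, strain and age, and the labels name no treatment. Of 480 and 1056 labelled cells, 290 and 709 were in the table, on 5 and 11 plates, and all 999 were used. Mice of both sexes were used, and the labels tie no cell to an animal.

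A heterotrimeric G protein relays the signal of a receptor in the cell membrane. The activated receptor makes the alpha subunit exchange GDP for GTP, upon which alpha and the paired beta and gamma subunits act on separate targets, and RGS proteins speed up the hydrolysis of GTP and so end the signal. In serotonin neurons the autoreceptor Htr1a couples to alpha subunits of the Gi/o class and, through beta and gamma, to GIRK potassium channels that slow firing.

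The cells carried the RNA of serotonin neurons: Tph2 and Fev were read in 999 of 999 cells, Slc18a2 in 998 and Slc6a4 in 997. A read of Tph2 was a condition for using a cell, so its share was set beforehand. Depth was 96834 to 2780443 reads on genes per cell, with a median of 827283 (755926 in principal_DR and 869546 in all_DR), and the median number of genes detected was 9554. Markers of vessels and microglia were low, with plate sums of 0 to 3.01 CPM for microglia and 0.0384 to 2.71 CPM for endothelium. Kdr and Abcc9 had no read in any cell, while Cldn5 was read in 2 cells, Pdgfrb in 29 and Ly6c1, an endothelial marker, in 57. Markers of oligodendrocytes were not absent: Mbp was read in 744 cells. The sum over 7 oligodendrocyte genes was 71.3 to 190.3 CPM (reads of a gene scaled to a fixed total of reads per cell) on the principal_DR plates and 119 to 1664 CPM on the all_DR plates. Cnp, one of the 7, was read in 959 cells. Of the astrocyte markers, Slc1a2 was read in 571 cells. The sum over 6 astrocyte genes was 12.3 to 25.4 CPM on the principal_DR plates and 10.5 to 90.3 CPM on the all_DR plates.

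Of the 53 genes, 38 had a mean of at least 1 CPM and entered the comparisons, 28 had a mean of at least 10 CPM, and 22 were read in at least 90% of cells. Gnb1, Gnas and Gnao1 were read in all 999 cells. These shares describe detection at full depth, with counting error only.

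Levels of different genes are compared here per length, as CPM per kb of annotated exon, and the spread is the range over the 16 plate means. Among alpha subunits, Gnas, which encodes the stimulatory Gs alpha, was highest at 84.1 CPM per kb. Gnai1, Gnai2 and Gnaz, 3 inhibitory alpha subunits, followed at 73.6, 61.4 and 54.5, and their plate ranges overlapped with each other and with that of Gnas (66.6 to 102.9 for Gnas, 53.5 to 96.3 for Gnai1). Gna11, a Gq class subunit, stood at 37.6, and Gnao1 and Gnaq at 19.2 and 18.0. Gnal, the second stimulatory alpha, had 4.26 CPM per kb, and Gna13, Gna14 and Gna12 had 2.78, 1.56 and 1.46. Added up by class, Gi/o alpha genes made 58.2% ± 1.3 (SD, n = 16 plates) of all alpha transcript per length, Gs alpha genes 24.6% ± 1.5, Gq alpha genes 16.0% ± 1.9 and G12 alpha genes 1.18% ± 0.24. The Gi/o share was 58.1% in principal_DR and 58.2% in all_DR, while its composition was not the same: Gnai1 made 26.5% of alpha transcript in principal_DR and 18.0% in all_DR, and Gnai2 made 13.6% and 18.6%. Length here is the union of all annotated exons, which is long for Gnas (11.2 kb) and Gnao1 (11.1 kb). Levels per length of these genes therefore depend on which of their exons are used, and so do the class shares. Before division by length, Gnas averaged 941 CPM over plates, against 232 for Gnai2, 231 for Gnai1, 212 for Gnao1 and 197 for Gnaz. A shorter length for Gnas would raise the Gs share, and one for Gnao1 the Gi/o share. No other length was tried, so the order of the classes holds for this length alone.

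Beta and gamma subunits were each led by 1 gene. Gnb1 had 446 CPM per kb and made 79.3% ± 6.4 of beta transcript (SD, n = 16 plates). Gnb5, the atypical beta subunit that pairs with RGS proteins of the R7 class rather than with gamma subunits, made 17.3% ± 5.3. Gnb2, Gnb4 and Gnb3 had 8.21, 5.88 and 3.51 CPM per kb. Gng3, a gamma subunit of neurons, had 322 CPM per kb and made 71.3% ± 5.0 of gamma transcript, followed by Gng4 (47.7 CPM per kb) and Gng2 (47.1), whose plate ranges overlapped. The remaining gamma genes with at least 1 CPM, Gng13, Gng10, Gng5, Gng12 and Gng7, were all under 10 CPM per kb.

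RGS transcript was divided more evenly. Rgs2, a regulator of the R4 class that acts most on Gq alpha, had 35.2 CPM per kb, and its plate means ran from 43.7 to 312.7 CPM. Rgs19 and Rgs17, of the RZ class that acts on Gnaz and other Gi/o subunits, had 29.0 and 9.15 CPM per kb. Of the R7 class, which works with Gnb5, Rgs11 had 19.8, Rgs7 10.9 and Rgs9 5.23, and Rgs6 was read in 9 cells. Rgs10 had 14.9 CPM per kb but was read in 49.2% of cells (95% exact interval 46.1 to 52.4). As a share of RGS transcript per length, the R4 class made 46.1% in principal_DR and 24.1% in all_DR, and the R7 class 18.6% and 32.1%. Rgs2 alone, of the R4 class, made 41.5% and 17.4%, and the RZ class made 23.6% and 31.6%. The shares add to a fixed total, so a difference in Rgs2 also moves those of the other classes.

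**Figure D1:**
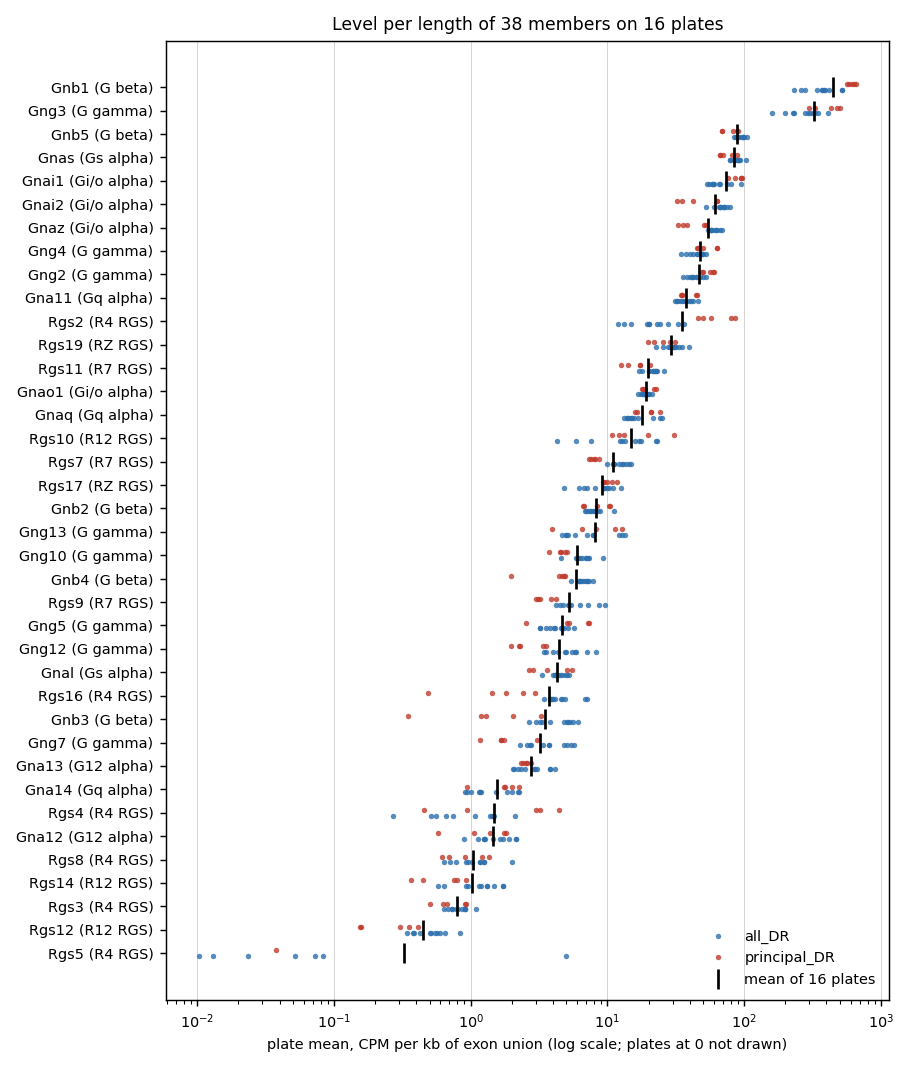
Level of the 38 genes with a mean of at least 1 CPM, as plate mean CPM per kb of exon on a log axis, with 1 point per plate (red for 5 principal_DR plates, blue for 11 all_DR plates) and a black bar at the mean of 16 plates. Gnb1 and Gng3 stand highest, at 446 and 322 CPM per kb; plates at 0 are not drawn.

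The other 15 genes had a mean under 1 CPM over all cells and entered no comparison. Rgs1, Rgs18, Gnat3 and Gngt1 had no read in 999 cells, which allows a share of up to 0.300% of cells. Gngt2 and Rgs21 were each read in 1 cell, and Gnat1, a transducin subunit of rods, in 4. Gng8, Rgs20, Gnat2, Gng11, Rgs13, Gna15, Rgs22 and Rgs6 were read in 9 to 94 cells. Rgs5, known from pericytes, was among the 38 genes compared only through 1 cell. It was read in 13 cells, with a median of 5.53 CPM in those cells and a highest value of 1707 CPM, and that cell held 94.3% of the summed Rgs5 CPM. None of the 13 cells had a read of the 2 pericyte and 3 endothelial markers that were read in at least 3 cells.

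The first comparison asked which of these genes differ between the dissections. The study used several animals for each dissection, but the labels tie no cell or plate to an animal. No test over animals could be made, each dissection is treated as 1 sample, and the plate means are given instead. No plate held cells of both dissections: principal_DR cells lay on plates SER12 to SER40 and all_DR cells on plates SER48 to SER67. A difference between dissections can therefore not be told apart from a difference between these sets of plates. A gene was called when the ratio of the means over plates was at least 2-fold and no plate of one dissection lay within the range of the other. Rgs2 was called higher in principal_DR, 1 of 38 genes against 1.85% of 12834 genes in all, and Rgs16, another R4 regulator, was called lower, 1 of 38 against 1.03%.

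Rgs2 averaged 207, 167, 181, 313 and 290 CPM on the 5 principal_DR plates. On the 11 all_DR plates its lowest, median and highest means were 43.7, 73.5 and 132.1 CPM. Every principal_DR plate was above every all_DR plate, with group means of 231 ± 66 and 80.7 ± 28.1 CPM (SD over plates) and a log2 difference of 1.51. Rgs16 averaged 4.22, 6.91, 3.34, 5.64 and 1.15 CPM on the principal_DR plates and 8.00, 9.61 and 16.5 CPM (lowest, median, highest) on the all_DR plates, a log2 difference of -1.18. It was read in 39.7% of all cells.

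With the 2-fold limit dropped, plate means did not overlap for 2 of 38 genes that were higher in principal_DR (4.18% of all genes) and for 5 of 38 that were lower (4.92% of all genes). Besides Rgs2, the higher gene was Gnb1, with 2395 to 2812 CPM on principal_DR plates and 985 to 2228 CPM on all_DR plates (log2 difference 0.72). The lower genes besides Rgs16 were Rgs9 (log2 difference -0.77), Gnb4 (-0.68), Rgs7 (-0.62) and Gnaz (-0.51). Rgs7 had 44.3 to 52.1 CPM on principal_DR plates and 59.4 to 89.0 CPM on all_DR plates. Rgs7 and Rgs9 are R7 regulators. Rgs11, another of that class, averaged 69.2 and 89.6 CPM with overlapping plates. Gnb5, their partner, averaged 249 and 292 CPM, also with overlapping plates. Rgs4 (0.98) and Gnb3 (-1.24) had larger differences with overlapping plates, and the value of Rgs5 (-1.61) rests on the 1 cell described above. Over the 38 genes the median log2 difference was -0.17, with 16 above 0 and 22 below, and over all 12834 genes it was -0.02.

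**Figure D2:**
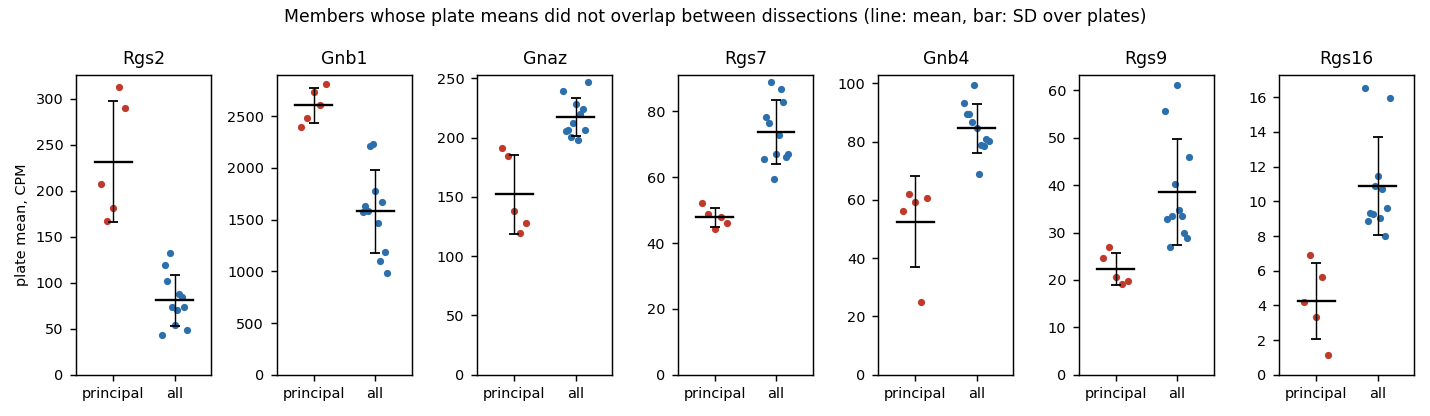
Plate means in CPM of the 7 genes whose plates did not overlap between dissections, with 1 point per plate, a line at the mean and a bar of 1 SD over plates; each vertical axis starts at 0. Rgs2 and Gnb1 are higher on the 5 principal_DR plates and Gnaz, Rgs7, Gnb4, Rgs9 and Rgs16 on the 11 all_DR plates.

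The all_DR dissection held 147 of 150 Zeb2-positive and 154 of 164 Irx2-positive cells. Among cells without a read of either gene (277 principal_DR and 413 all_DR cells), Rgs2 averaged 234 ± 64 CPM in principal_DR and 117 ± 30 CPM in all_DR, and the ranges of 167 to 313 and 77.4 to 169.9 CPM overlapped. Rgs16 averaged 4.24 ± 2.11 and 9.44 ± 4.33 CPM with overlapping plates, so that neither of the 2 calls was kept. Gnb1 in these cells ran from 2398 to 2812 CPM in principal_DR and from 989 to 2381 CPM in all_DR, and Rgs7 from 41.7 to 52.4 and from 71.3 to 126.6 CPM, both still apart, while the plates of Gnaz, Gnb4 and Rgs9 overlapped. Oligodendrocyte and astrocyte markers reached higher plate sums in all_DR than in principal_DR, as given above. In the 357 cells with at most 100 CPM over all glia and vessel markers, the log2 difference of Rgs2 was 1.76 and that of Rgs16 -1.18, both with overlapping plates, and Rgs9 was called at -1.02. The part of these markers in the result was not tested. Without plate SER40 the difference of Rgs16 was -0.98. Without plate SER13, Gnb3 (-1.57) and Gng12 (-1.03) were called as lower too, and without SER12 Gng7 (-1.17).

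Within plates, the marker with the most called genes was Zeb2, with 4 of 38. Zeb2 encodes a zinc finger repressor, and a cell was called positive with at least 1 read. There were 150 such cells, 147 of them in all_DR, and all 11 all_DR plates held at least 5 positive and 5 negative cells. A gene was called when the median over plates of the log2 ratio of mean CPM (with 1 CPM added) was at least 1 in size and the sign was the same on every plate. Gna14 was called higher in Zeb2-positive cells, 1 of 38 genes against 1.39% of all genes, and Rgs2, Rgs4 and Gnb3 were called lower, 3 of 38 against 3.53%.

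Gna14, an alpha subunit of the Gq class that activates phospholipase C beta, averaged 5.63, 13.6 and 26.0 CPM (lowest, median and highest plate) in Zeb2-positive cells. It averaged 1.39, 2.79 and 4.77 CPM in Zeb2-negative cells of the same plates, so that the 2 sets of plate means did not overlap. The median log2 difference was 1.94, with a range over plates of 0.85 to 3.18. Gna14 was read in 51.7% of positive cells (95% exact interval 43.3 to 60.0) and in 14.9% of negative cells (12.1 to 18.2).

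Rgs2 averaged 12.4, 30.0 and 62.5 CPM on the lowest, median and highest plate in Zeb2-positive cells and 59.1, 86.5 and 142.7 CPM in negative cells. It was lower on 11 of 11 plates, with a median log2 difference of -1.73 (range -2.16 to -0.46), although it was read in 89.8% of positive and 90.7% of negative cells, so that the plates differed in level with similar detection. Rgs4, a close relative of Rgs2 that acts on Gi/o and Gq alpha, was read in 5 of 147 positive cells (3.40%, 1.11 to 7.76) and in 111 of 562 negative cells (19.8%, 16.5 to 23.3). Its median log2 difference was -1.54. Its mean was 4.97 CPM over all cells, and with 5 CPM added in place of 1 the difference was -0.48. It was not called in 5 of 12 alternatives (positive from 10 CPM, means of ln(CPM+1), 5 CPM added, thinned, and cells low in glia and vessel markers), and its value ran from -4.00 to -0.48. Gnb3, a beta subunit known from cones and taste cells, averaged 1.29, 3.38 and 6.99 CPM in positive cells and 9.46, 13.5 and 17.5 CPM in negative cells (median log2 difference -1.49, range -2.57 to -0.41), and these plate means did not overlap either.

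The 250 bases before the RefSeq start of the called genes with an entry in the RefSeq promoter table (build GRCm38.p6) are shown because these genes differed between Zeb2-positive and Zeb2-negative cells, Gna14 being higher and Rgs2 and Rgs4 lower, and Zeb2 is a factor known to bind E-boxes of the sequence CACCTG. Written 5′ to 3′ on the strand of the gene, capitals mark CACCTG or its reverse complement CAGGTG, and TGACG or CGTCA, the core of a cyclic AMP response element. Gnb3 is named only.
Rgs2, chr1:144004150-144004399, minus strand: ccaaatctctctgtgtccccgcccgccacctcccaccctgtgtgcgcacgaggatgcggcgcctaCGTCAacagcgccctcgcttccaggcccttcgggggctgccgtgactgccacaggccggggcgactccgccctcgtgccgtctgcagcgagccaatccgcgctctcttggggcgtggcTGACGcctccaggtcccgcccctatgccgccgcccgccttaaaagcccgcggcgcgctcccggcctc
Rgs4, chr1:169747643-169747892, minus strand: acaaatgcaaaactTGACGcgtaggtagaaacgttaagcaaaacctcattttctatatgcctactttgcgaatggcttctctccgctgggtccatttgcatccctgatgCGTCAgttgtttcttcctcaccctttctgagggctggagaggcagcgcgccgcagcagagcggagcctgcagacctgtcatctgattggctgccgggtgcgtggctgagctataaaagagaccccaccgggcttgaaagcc
Gna14, chr19:16435417-16435666, plus strand: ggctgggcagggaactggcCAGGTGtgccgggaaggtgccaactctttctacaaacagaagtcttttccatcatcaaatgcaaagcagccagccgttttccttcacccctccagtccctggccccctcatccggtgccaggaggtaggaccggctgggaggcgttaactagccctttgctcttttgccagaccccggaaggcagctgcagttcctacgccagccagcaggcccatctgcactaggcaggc
The E-box letters occurred once in the Gna14 window and not in the Rgs2 and Rgs4 windows, and 17.2% of all 32851 promoters in the table hold them in the same 250 bases. The core of the cyclic AMP element occurred at 2 positions in Rgs2 and at 2 in Rgs4 and not in Gna14, against 17.8% of all promoters with at least 1. The windows differ in base composition, with 72.4% G and C in Rgs2, 53.6% in Rgs4 and 60.0% in Gna14. A match is a description of the letters and says nothing about binding.

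Among the other genes of the pathway (adenylyl cyclases, GIRK subunits, phospholipase C beta, receptor kinases and arrestins, anchors of R7 regulators, and chaperones of alpha subunits), 30 of 37 had at least 1 CPM. In Zeb2-positive cells 2 of the 30 were called higher, against 1.39% of all genes, and 0 of 30 lower, against 3.53%. Both were phospholipase C beta isoforms, the enzymes that Gq alpha subunits activate. Plcb4 averaged 238 to 411 CPM over plates in positive cells and 58.9 to 117.2 CPM in negative cells (median log2 difference 1.97). Plcb3 averaged 1.65 to 13.9 CPM and 0 to 1.01 CPM (median log2 difference 2.22), and was read in 51.7% of positive and 6.41% of negative cells. Next highest among the family were Gng13 (0.79, above 0 on 11 of 11 plates) and Rgs16 (0.79, on 10). Gnaq and Gna11 were not called. Median depth was 884326 reads in positive and 869119 in negative cells, and the median log2 difference over all genes was -0.02. A sum over 4 markers of other neurons was lower in Zeb2-positive cells (0 to 0.277 CPM over plates against 0.407 to 4.25 CPM, median log2 -0.80), and its part in the results was not tested. Sums of oligodendrocyte and astrocyte markers had median log2 differences of -0.19 and 0.18 with overlapping plates.

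Irx2-positive cells (164 cells, compared on 12 plates) had more Gnb3 where Zeb2-positive cells had less. Irx2 encodes a homeodomain transcription factor. Gnb3 was called higher, 1 of 38 genes against 0.249% of all genes, and 0 of 38 were called lower against 0.468%. Gnb3 averaged 9.75, 17.3 and 31.1 CPM in Irx2-positive cells and 3.68, 9.05 and 14.1 CPM in negative cells (lowest, median and highest plate), higher on 12 of 12 plates, with a median log2 difference of 1.01 that lay at the limit. It was read in 56.9% (48.8 to 64.7) of positive and 35.2% (31.5 to 39.0) of negative cells. It fell under the limit in 8 of 12 alternatives, at 0.74 to 0.98 (0.74 in cells with at most 100 CPM of glia and vessel markers). It was 0.98 in cells without a read of Zeb2. The Zeb2-positive cells, which had less Gnb3, are mostly in the Irx2-negative set, so the Zeb2 and Irx2 comparisons are not independent.

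Gna14 and Rgs2 had larger differences in Irx2-positive cells but changed sign on 1 plate each. Gna14 was read in 7 of 160 positive cells (4.38%, 1.78 to 8.81) and in 27.6% (24.2 to 31.3) of negative cells, with a median log2 difference of -2.34 on 12 plates and a call without plate SER67. Gna14 was also called with cells pooled (-2.20) and in cells low in glia and vessel markers (-2.67). Rgs2 had a median log2 difference of -1.64, with a call without plate SER48. Rgs2 was also called from 10 CPM (-1.97), pooled (-1.57), thinned (-1.77), low in glia and vessel markers (-2.24) and without Zeb2 (-1.83). Next came Rgs10 (-0.94) at the low end, and Rgs9 (0.40) and Rgs14 (0.31) at the high end. Summed astrocyte markers were lower in Irx2-positive cells too (median log2 difference -0.98 over 6 genes), and their part in the results was not tested. Irx2-positive cells were shallower, with medians of 783036 reads and 9288.5 genes against 840237 and 9635 in negative cells.

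Zeb2 and Irx2 were read together in 5 cells, and the 5 were left out in dividing the all_DR cells into 3 sets. On the 11 plates Rgs2 averaged 30.7 ± 14.9 CPM in 142 cells with Zeb2 and no Irx2, 36.0 ± 15.6 CPM in 149 cells with Irx2 and no Zeb2, and 117 ± 30 CPM in 413 cells with neither (SD over plates). The lowest plate of the last set, 77.4 CPM, was above the highest plates of the first 2 sets, 62.5 and 64.7 CPM, which themselves overlapped. Gnb3 averaged 4.00 ± 2.10, 19.6 ± 5.6 and 10.5 ± 3.5 CPM in the same order. The highest Gnb3 plate of the Zeb2 set was 7.21 CPM and the lowest of the Irx2 set 10.5 CPM. Gna14 averaged 15.9 ± 8.7, 0.83 ± 1.27 and 3.59 ± 1.52 CPM. Rgs4 averaged 0.92 ± 1.62, 2.93 ± 3.31 and 4.41 ± 2.34 CPM, with overlapping plates throughout. The 3 sets share plates and the cells of 1 plate are not independent of each other.

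**Figure D3:**
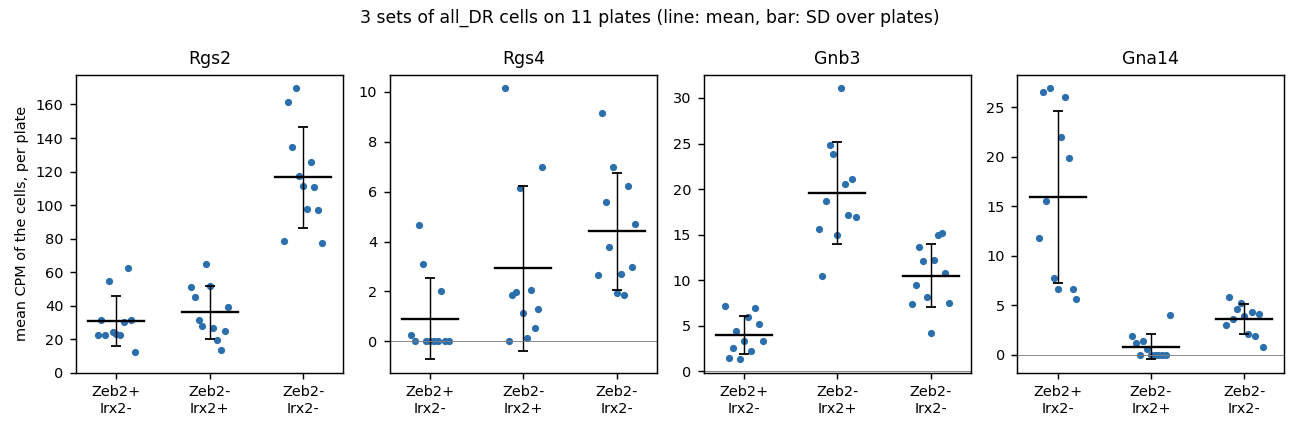
Mean CPM of Rgs2, Rgs4, Gnb3 and Gna14 in 3 sets of all_DR cells, with 1 point for each of 11 plates, a line at the mean and a bar of 1 SD over plates. Rgs2 is low in both marker-positive sets, Gnb3 is lowest in Zeb2-positive and highest in Irx2-positive cells, and Gna14 is highest in Zeb2-positive cells at a mean of 15.9 CPM.

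Trh-positive cells, which transcribe the gene of thyrotropin-releasing hormone, had less Gnb4. There were 138 such cells, 98 of them in principal_DR, and 126 of the 138 also had a read of Gad1 or Gad2. On 10 plates with enough cells, 0 of 38 genes were called higher against 0.787% of all genes, and Gnb4 was called lower, 1 of 38 against 0.951%. Gnb4, a beta subunit, averaged 8.54, 28.3 and 61.2 CPM (lowest, median and highest plate) in Trh-positive cells and 35.7, 78.8 and 105.6 CPM in negative cells. The difference was below 0 on 5 of 5 principal_DR plates and 5 of 5 all_DR plates, with a median log2 of -1.46 (range -2.23 to -0.38). It was read in 76.0% (67.5 to 83.2) of positive and 92.1% (89.5 to 94.3) of negative cells.

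Rgs7, chosen here after its values were seen, was below 0 on 10 of 10 plates (median log2 -0.81). Gng12 was below 0 on 9 of 10 (-1.87, called without plate SER39) and Gnb3 on 8 of 10 (-0.88), though Gnb3 was 0.22 among Gad-positive cells and 1.21 in cells with at most 100 CPM of glia and vessel markers. Rgs12 (0.89), Gna12 (0.72) and Gnai1 (0.42) had the highest values. Rgs7 averaged 25.3 to 50.8 CPM in positive and 47.6 to 91.1 CPM in negative cells. Among cells with a read of Gad1 or Gad2 alone, Gnb4 had a median log2 difference of -1.47 between Trh-positive and Trh-negative cells, and was not called, since the sign was not the same on every plate. Summed astrocyte markers were lower in Trh-positive cells (0 to 13.2 CPM over plates against 10.9 to 99.0 CPM, median log2 -1.60). A sum over 4 markers of other neurons was higher (0 to 23.6 CPM against 0.153 to 2.05 CPM, median log2 1.90), and the part of both in the result was not tested. In cells with at most 100 CPM of glia and vessel markers Gnb4 was still called, at -2.41. Trh-positive cells had medians of 791928 reads and 9817 genes, against 741305 and 9512 in negative cells. On the all_DR plates alone, Gnb3 (-1.76), Gng12 (-4.40) and Rgs16 (-1.70) were called lower besides Gnb4.

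Slc17a8, Npy2r and Gad-positive cells showed no called gene of the family in the main comparison. Slc17a8 encodes the vesicular glutamate transporter VGLUT3, Npy2r a Gi/o-coupled receptor of neuropeptide Y, and Gad1 and Gad2 the enzymes that make GABA. For Slc17a8 (649 positive cells, 16 plates), 0 of 38 genes were called higher and 0 lower, against 0.101% and 0.0779% of all genes. For Npy2r (265 cells, 15 plates) 0 of 38 were called in each direction against 0.109% (higher) and 0.179% (lower), and for Gad1 or Gad2 (347 cells, 16 plates) 0 of 38 in each direction against 0.0623% and 0.0779%. These are counts by a fixed rule of size and sign, with no test behind them. The rule asks for the same sign on every plate, which were 15 or 16 here. It is harder to meet on these than on the 11, 12 and 10 plates of Zeb2, Irx2 and Trh.

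In Slc17a8-positive cells Rgs10, a small regulator of Gi/o alpha, had a median log2 difference of 1.63 and was above 0 on 13 of 16 plates, with 57.6% (53.7 to 61.5) of positive and 33.7% (28.8 to 38.9) of negative cells having a read. Rgs16 (0.87) and Rgs4 (0.53) came next, and Gna14 (-0.59), Gna13 (-0.30) and Gna12 (-0.25) were lowest. Rgs2, chosen here after its values were seen, was above 0 on 16 of 16 plates with a median of 0.43. Rgs10 was called on the 5 principal_DR plates alone, at 1.57, and not on the all_DR plates alone, at 1.69. Summed astrocyte markers were higher in Slc17a8-positive cells (median log2 0.80), and their part in these values was not tested. Slc17a8-positive cells were deeper as well, with medians of 867515 reads and 9629 genes against 768896 and 9470.5 in negative cells.

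In Npy2r-positive cells Rgs4 (1.29, above 0 on 14 of 15 plates), Rgs10 (1.21, on 13) and Rgs2 (0.93, on 14) were highest, and Rgs9 (-0.67), Gna14 (-0.61) and Gnb3 (-0.60) lowest. Rgs4 was read in 35.2% (29.5 to 41.3) of Npy2r-positive and 16.4% (13.7 to 19.3) of negative cells, and it was called without plate SER57. With 10 cells per set required Rgs10 was called at 1.29. Rgs10 was also called from 5 reads (1.23), from 10 CPM (1.40), with means of ln(CPM+1) (1.52) and pooled (1.42). Rgs2 was called with means of ln(CPM+1) (1.53) and on all_DR plates alone (1.10). Rgs4 was called pooled (1.45) and on principal_DR plates alone (1.46), and Rgs9 in cells low in glia and vessel markers (-1.05). Of the pathway genes, Plcb1, another phospholipase C beta, was called higher with a median of 1.64, from 14.6 to 36.5 CPM in positive and 3.76 to 10.2 CPM in negative cells. That was 1 of 30 pathway genes, against 0.109% of all genes. Summed astrocyte markers were higher here too (median log2 0.69). Npy2r-positive cells were also deeper, with medians of 907168 reads and 9988.5 genes against 789268 and 9399 in negative cells. Within plates, the median r with the number of genes detected was 0.41 for Rgs2 and 0.01 for Rgs10. The part of the number of genes detected in these values was not tested. The Npy2r and Slc17a8 sets share cells: 219 of the 265 Npy2r-positive cells also had Slc17a8.

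In Gad-positive cells Gna12 and Gna14 (both 0.57) and Rgs12 (0.48) were highest, and Gnb3 (-0.87), Rgs7 (-0.58) and Gnb4 (-0.52) lowest, the last 3 below 0 on 13 of 16 plates each. On the principal_DR plates alone Gnb4 (-1.42) and Gna14 (1.24) were called. Trh-positive cells made 36.3% of Gad-positive cells, and summed astrocyte markers had a median log2 of -1.13. Gad-positive cells had medians of 796097 reads and 9623 genes, against 847035 and 9538.5 in negative cells.

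**Figure D4:**
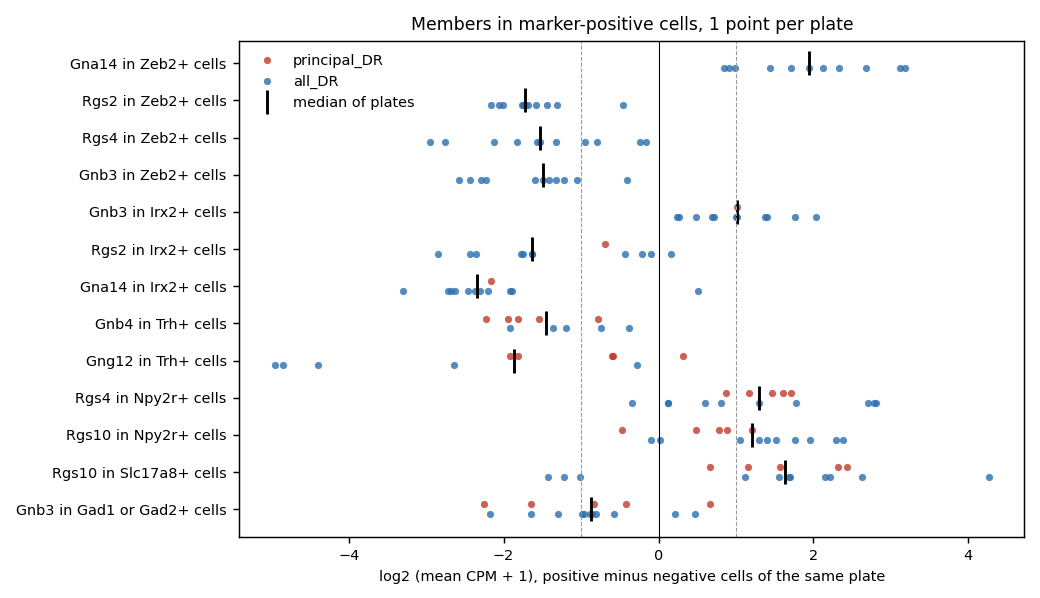
log2 difference of mean CPM (with 1 CPM added) between marker-positive and marker-negative cells of the same plate, with 1 point per plate (red principal_DR, blue all_DR), a black bar at the median and dashed lines at -1 and 1. Only the 4 Zeb2 rows, Gnb3 in Irx2-positive cells and Gnb4 in Trh-positive cells keep 1 sign on all plates and a median past the dashed lines.

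Htr1a, the autoreceptor, was read in 944 of 999 cells with plate means of 84.1 to 193.2 CPM. The last question was which genes of the family varied with it from cell to cell. Pearson's r of ln(CPM+1) was computed within each plate, and a gene was called when the median over the 16 plates was at least 0.2 in size with the same sign on at least 13. The cells of a plate share a library pool and a depth range, and no p-value is given. Gnas and Rgs9 were called as positive, 2 of 38 genes against 1.26% of all 12833 genes, and 0 of 38 were called as negative against 0.132%. Over the 38 genes the median r was 0.03, and over all genes 0.04.

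Gnas stood first of all 12833 genes. Its r with Htr1a was 0.40, 0.26, 0.11, 0.64 and 0.51 on the 5 principal_DR plates and 0.31 to 0.79 on the all_DR plates, with a median of 0.52 over the 16 plates and no plate below 0. The median was 0.40 on principal_DR and 0.55 on all_DR plates, and a difference between them was not tested. It was 0.50 with every cell thinned to 250000 reads, 0.42 once depth and the number of genes detected had been regressed out, 0.40 by Spearman rank correlation and 0.38 among cells with a read of Htr1a. When the cells of each plate were divided into 3 equal parts by Htr1a level, Gnas averaged 779 ± 118, 981 ± 137 and 1066 ± 172 CPM from the lowest to the highest part (SD over 16 plates), and the top part was above the bottom part on 14 plates.

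Gnas lies at chr2:174284320-174346744 on the plus strand (mm10). Gm20721 lies within it on the opposite strand, at chr2:174330319-174346712, and stood second in the ranking with a median r of 0.35, followed by App (0.35) and Slc7a8 (0.33), which are no members of the family. The counting ignored strand, so that reads of Gnas and of Gm20721 cannot be told apart where exons overlap, and the 2 values are not independent. Gm20721 had 23.4 CPM and Gnas 958 CPM over all cells.

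Rgs9, the R7 regulator best known from striatum, had a median r of 0.25 and was above 0 on 15 of 16 plates. It averaged 27.6 ± 12.5, 33.6 ± 12.3 and 39.3 ± 15.4 CPM in the 3 parts of rising Htr1a. Rgs9 was not called in 4 of 10 alternatives. Its median r was 0.16 among cells with a read of Htr1a and 0.11 among cells with at most 100 CPM of glia and vessel markers. It was 0.198 by Spearman rank correlation and 0.26 on the principal_DR plates alone, where plate SER13 was at -0.05. Of the pathway genes, Rgs7bp, which anchors R7 regulators to the membrane, had a median r of 0.31 (14 plates above 0) and Adcy3, an adenylyl cyclase, 0.21 (15 plates), and both were called. They were 2 of 30 pathway genes, against 1.26% of all genes called as positive. Rgs7bp lies near Htr1a, at chr13:104945904-105054930 against chr13:105443639-105448122, and the part of this position in its r was not tested.

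Among the inhibitory alpha subunits, the class through which Htr1a signals, none was called. Gnai2 and Gnai1 had median r values of 0.17 and 0.14, each above 0 on 14 of 16 plates, and Gnai2 was called at 0.22 in cells without a read of Zeb2. Gnaz and Gnao1 had values of 0.00 and -0.01 with 8 and 7 plates above 0. Gnb4 had 0.20, just under the limit, and was called when 1 of 8 plates was left out. GIRK subunits, the channels that beta and gamma open, were not called (Kcnj3 -0.03, Kcnj6 0.00, Kcnj9 -0.01, Kcnj5 -0.08). Kcnj9 was the pathway gene called between the dissections, with 10.9 to 23.8 CPM on principal_DR and 33.3 to 59.7 CPM on all_DR plates (log2 difference -1.13). It was 1 of 30 pathway genes, against 1.03% of all genes called lower in principal_DR.

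Rgs2, Rgs7 and Rgs17 had the lowest values, with medians of -0.16, -0.14 and -0.14, below 0 on 14, 12 and 13 plates. Rgs2 averaged 151 ± 86 CPM in the lowest part by Htr1a, 132 ± 87 CPM in the middle and 100 ± 83 CPM in the highest, and the top part was below the bottom part on 16 of 16 plates. The r of Rgs2 was called with depth and the number of genes regressed out (-0.22) and by Spearman rank correlation (-0.20), and was -0.06 in cells without a read of Zeb2. Rgs17 was called in cells low in glia and vessel markers (-0.26), on all_DR plates alone (-0.21) and among cells with a read of Htr1a (-0.25). Gng12, chosen here after its values were seen, averaged 14.9, 20.8 and 27.5 CPM in the 3 parts. Its median r was 0.17, above 0 on 14 plates. Gng12 was called by Spearman rank correlation (0.21), in cells low in glia and vessel markers (0.35) and on all_DR plates alone (0.21). Gnaq (0.20) and Gnb4 (0.23) were called on all_DR plates alone.

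**Figure D5:**
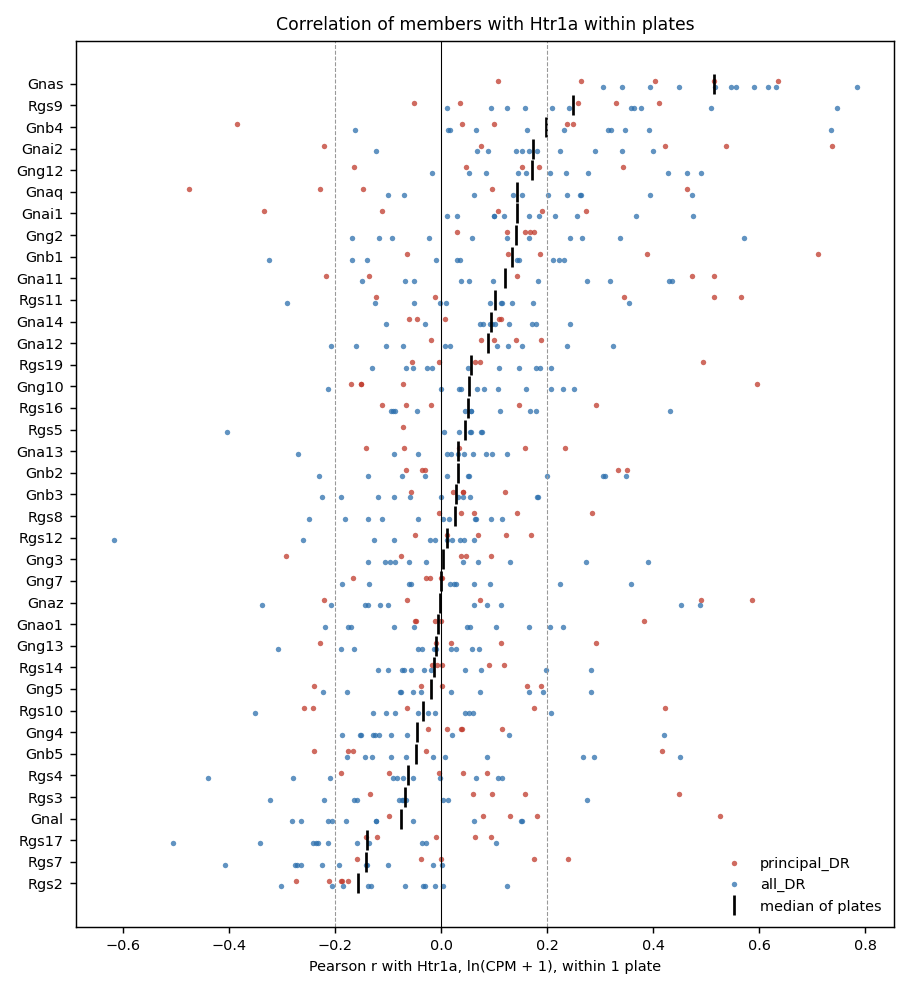
Pearson's r with Htr1a of the 38 genes with a mean of at least 1 CPM, from ln(CPM+1) within each plate, with 1 point per plate (red principal_DR, blue all_DR), a black bar at the median and dashed lines at -0.2 and 0.2. Gnas has a median of 0.52 with all plates above 0, and Rgs2 the lowest median at -0.16.

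Over the 378 pairs of the 28 genes with a mean of at least 10 CPM, the median of the within-plate r was 0.04, and it ran from -0.24 to 0.31. The 5 highest pairs were Rgs11 with Gna11 (0.31), Gnb1 with Gng3 (0.30), Rgs19 with Gna11 (0.30), Gnb1 with Gng2 (0.27) and Rgs17 with Rgs7 (0.26). Gnb1 and Gng2, a beta and a gamma subunit, were positive on 16 of 16 plates. The 3 lowest were Rgs10 with Gng2 (-0.24), Rgs7 with Gnas (-0.20) and Rgs17 with Gng2 (-0.19). Gnb1 itself had a median r of 0.50 with the number of genes detected in a cell, and Gna11 and Rgs11 had 0.36 and 0.38, and this was not removed from the pairs.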

How the data were processed

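Processing of the deposited values. Single tdTomato-positive cells were made into Smart-seq2 libraries and sequenced as read pairs. Per the submitters' processing notes and the study's methods, the authors demultiplexed with bcl2fastq 2.19.0.316, aligned to mm10 with STAR 2.6.1a, counted reads on genes with HTSeq 0.11.2 in its unstranded mode, dropped Y-linked genes from the table and deposited CPM for 999 of 1536 labelled cells. Smart-seq2 reads carry no molecular identifiers, so intervals and zero limits cover counting error only. In every one of the 999 cells each CPM value was a whole multiple of 1 read (tolerance 0.01), which gave the reads per cell.

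Cells needed 300 genes, 50000 reads and a read of Tph2, and all passed. Cells were sorted singly and no doublet caller was run. Genes compared had at least 1 read in 3 cells and a mean of at least 1 CPM (12834 genes). Each dissection is 1 sample, so differences are log2 ratios of mean CPM plus 1, over plates or within plates with at least 5 positive and 5 negative cells, with no p-value; such ratios understate the change of low genes. Each dissection came from several animals, which the labels do not tie to plates. Intervals on shares are exact (Clopper-Pearson, 95%). Exon lengths and positions came from GENCODE M21, whose build is that of the alignment, and 27 of the 53 genes overlap an annotated gene on the opposite strand, so that their reads cannot be fully told apart. The annotation the authors counted on is not given in the sources used here. Promoters came from RefSeq (GRCm38.p6), with an entry for 39 of 53 genes.

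Named are every called gene, otherwise the 3 highest and 3 lowest values of a comparison among genes with at least 1 CPM, called pathway genes, and genes with at least 10 CPM by level. The genes, the lists and the rules were chosen with earlier results of these data known. Scripts were tested on simulated data. Alternatives were other limits for a positive cell, pseudocounts, scaling, thinning to 250000 reads, no filter on low genes, removal of cells with glial RNA, and each plate left out. Python 3.11.15, NumPy 2.4.6, SciPy 1.17.1, pandas 2.3.3 and matplotlib 3.10.9 were used.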

Additional observations from a re-analysis of the deposited data

Results flagged for a closer look

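Among the 28 genes with a mean of at least 10 CPM, the 5 principal_DR plates were searched for a plate that stood apart from the others. Gnb4 on plate SER39 did, with 25.0 CPM against 56.0 to 62.0 CPM on the other plates. Chance puts about 1 in 20 such groups past the limit used, and 1 of 28 did so here. Plate SER39 held 28 cells. The all_DR plates number 11 and were not searched. Of 190 differences between marker-positive and marker-negative cells, or correlations with Htr1a, that both dissections allowed, none had one sign on all principal_DR plates and the other sign on all all_DR plates.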

How the results depend on the processing

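Counts of called genes out of 38 changed as follows. The share of all genes called was not computed under these alternatives. A larger or smaller count can therefore not be read as a result about the family. For the dissections (2 called) the count was 1 with 5 CPM added, 1 in cells with at most 100 CPM of glia and vessel markers, 0 in cells without a read of Zeb2 or Irx2, and 1 to 4 with 1 plate left out. For Zeb2 (4) it was 3 from 10 CPM, with 5 CPM added or thinned, 5 with means of ln(CPM+1), 6 with 10 cells per set or in cells without Irx2, 9 with cells pooled over plates, 7 in the cells low in glia and vessel markers and 4 to 5 with 1 plate left out (SER52 added Rgs16, SER56 Rgs10). For Irx2 (1) it was 0 from 5 reads, with 10 cells per set or with 5 CPM added, 2 from 10 CPM, 3 pooled, 3 low in glia and 1 to 2 with 1 plate left out. Gnb3 was not among the genes called from 10 CPM, pooled or low in glia. For Slc17a8 (0) it was 3 pooled and 1 on principal_DR plates alone. For Npy2r (0) it was 1 from 5 reads, from 10 CPM, with 10 cells per set, low in glia and on the plates of either dissection alone, 2 with means of ln(CPM+1), 3 pooled and 0 to 1 with 1 plate left out. For Gad1 or Gad2 (0) it was 2 pooled and 2 on principal_DR plates alone. For Trh (1) it was 2 with 10 cells per set, thinned or low in glia, 3 pooled, 4 on all_DR plates alone, 0 with means of ln(CPM+1) or among Gad-positive cells and 1 to 2 with 1 plate left out. For Htr1a (2) it was 1 on principal_DR plates alone, 6 on all_DR plates alone and 2 to 3 with 1 plate left out. The genes called with Htr1a also changed by Spearman rank correlation and with depth and the number of genes regressed out. They changed as well in cells low in glia and vessel markers, without Zeb2 or with a read of Htr1a, as named above. Pooled cells carry no condition on plates. The pooled counts for Zeb2, Irx2, Slc17a8, Npy2r and Gad1 or Gad2 each include Rgs5, whose value rests on 1 cell. The other causes were not tested. Of 266 values under alternatives for 11 pairs of a gene and a comparison (the called genes, and Gnb4 with Htr1a), 0 reversed, 25 lost and 9 gained a call. The Gi/o share of 58.2% was 58.0% to 58.4% and the highest pair r of 0.31 was 0.25 to 0.37 with 1 plate left out. Leaving out a plate does not change the exon lengths behind this share, so that range says nothing about them. Alternatives by dissection, by a second marker, among cells with Htr1a, and the omissions for levels and pairs were chosen after seeing the data. No paired analysis was possible because no test was run and replicate numbers only name cells, while marker comparisons and correlations were made within plates. Depth limits genes read in few cells, such as Rgs4.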
